A study of Mus musculus with 12 samples.

Results

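The regions described here were places in the mouse genome, away from gene starts, where FLAG-tagged dCas9 was called bound in a single library made with the guide gRNA3. They were chosen by peak presence. The peaks of the 6 anti-FLAG libraries on assembled chromosomes were pooled, peaks that shared at least 1 bp were merged, and a merged region was kept if its peaks came from exactly 1 library, a dCas9:gRNA3 one, and if its nearest edge lay more than 1000 bp from the start of every transcript annotated in GENCODE M21. Of 7594 merged regions, 4683 met this rule. Replicate 1 of dCas9:gRNA3 gave 2 of them, replicate 2 gave 479 and replicate 3 gave 4202, so that 89.7% came from replicate 3. Each of the 4683 regions consisted of 1 peak. In the other libraries these places carry no listed peak and therefore no value, which is not a measured value of 0.

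The cells were NIH-3T3, an established line of mouse fibroblasts, and chromatin bound by dCas9 was precipitated with an antibody against FLAG and sequenced. All cells carried dCas9, a Cas9 without nuclease activity, made from a lentivirus that also encodes GFP, and GFP-positive cells were sorted. The cells also received by lentivirus either gRNA3 or gRNAscr, and were selected with puromycin at a high concentration. gRNA3 is directed to the start of the shorter isoform of Il33, and gRNAscr is a scrambled guide that the paper calls non-targeting. According to the paper, the cells had also been transduced with an empty vector in place of Cre recombinase, which removes dCas9 in other cells of the study. Each guide had 3 anti-FLAG libraries and 3 libraries of input, the chromatin before immunoprecipitation. No library of cells without dCas9 was analysed here, and dCas9 with gRNAscr served as the control.

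dCas9 searches DNA for a short motif beside the target, the PAM, which for this protein is NGG. Pairing with the guide starts at the bases next to the PAM, the seed, and proceeds away from it, so that a site with a matching seed can be held briefly even where the rest does not match. Away from gene starts, open chromatin of fibroblasts lies largely at enhancers, many of which carry the motif of AP-1, the family of Fos and Jun transcription factors, and at sites of CTCF, the factor that anchors chromatin loops.

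The sequences of the matches to gRNA3 are shown first, because they are the part of the genome that the guide itself could read. The target of gRNA3 lies on the plus strand of chr19 in mm10. The lines give, 5′ to 3′, the target and then the 12 regions with at least 10 uninterrupted PAM-proximal bases of gRNA3 and an NGG within 50 bp of the summit, which is the position of the highest pileup of reads in a peak. There were 13 such regions, and the 12 with the longest match and then the highest fold enrichment are given, named by the gene whose intron holds the site or, after the word near, by the protein-coding gene with the nearest start. Capitals mark the matching PAM-proximal bases and the PAM, and in the target the last 8 bases and the PAM.
gRNA3 target in Il33, chr19:29945780-29945802, plus strand: cgactgtgttagCTCTCCACCGG
Rgs3 intron, chr4:62683548-62683570, minus strand, replicate 2: ggcttccaTTAGCTCTCCACTGG
Near Mbd3l2, chr9:18428950-18428972, plus strand, replicate 2: cctcccaccTAGCTCTCCACAGG
Near Rell1, chr5:64028113-64028135, minus strand, replicate 3: tgcaatggaTAGCTCTCCACTGG
Near Fhit, chr14:9547225-9547247, minus strand, replicate 3: ctcacaggagAGCTCTCCACTGG
Near Gsg1, chr6:135272732-135272754, minus strand, replicate 3: tctgcctcccAGCTCTCCACAGG
Near Zpld1, chr16:55531631-55531653, plus strand, replicate 3: actatcagaaAGCTCTCCACTGG
Near 1700122O11Rik, chr17:47984443-47984465, minus strand, replicate 2: ccgctgccccAGCTCTCCACCGG
Near Exosc2, chr2:31662337-31662359, minus strand, replicate 3: atgctagacaAGCTCTCCACTGG
Tg intron, chr15:66839128-66839150, minus strand, replicate 3: ctccctctccAGCTCTCCACTGG
Nsg2 intron, chr11:32010069-32010091, minus strand, replicate 3: tcagctcaacAGCTCTCCACAGG
Near Hrh3, chr2:180109009-180109031, plus strand, replicate 2: ttagggttcaAGCTCTCCACAGG
Near Foxk1, chr5:142386787-142386809, plus strand, replicate 3: acagtgccccAGCTCTCCACAGG

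The longest match had 12 bases and lay in an intron of Rgs3, a regulator of G protein signalling. Its summit fell within the site. The peak, in replicate 2, had 54 reads at the summit where the input gave 8.08 expected reads, and its fold enrichment was 5.68. Fold enrichment, taken from the authors' peak calls, divides the summit's pileup by the local background. The site beside Mbd3l2, a gene of the methyl-binding domain family, matched over 11 bases and its peak had 31 reads against 2.96 expected, with a fold enrichment of 6.97. The site beside Rell1, with the other match of 11 bases, had 19 reads against 2.59 expected and a fold enrichment of 5.22. Outside the matching bases the 12 sites had little in common with the target, with 6 to 9 mismatches in 20 bases. Of the 9 sites with 10 bases, those near Fhit, Gsg1 and Zpld1 were not inside a gene and had the highest fold enrichments, 7.76, 7.76 and 7.48. The sites in Tg, the gene of the thyroid hormone precursor thyroglobulin, and in Nsg2, which encodes a neuronal vesicle protein, had fold enrichments of 5.56 and 5.43. The lowest of the 12, 4.61, was at the site near Foxk1, a forkhead transcription factor, where 51 reads stood against 10.0 expected.

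Matches across the whole guide, counted without gaps, were poor. All other matches to gRNA3 given here were also counted without gaps, whereas the paper's list of possible off-targets allowed 1 gap. The fewest mismatches to the 20 bases of gRNA3 with an NGG anywhere in a region was 5, found in 1 region, and 10 regions had a site with at most 6. The guide was read from its genomic target, and a guide with another first base would change these counts by at most 1 mismatch a site. The 2 lines show the site with 5 mismatches and one of those with 6, with capitals for the bases that match gRNA3 and for the PAM.
Focad intron, chr4:88214146-88214168, minus strand, replicate 3: tGACTGTGTcAGCTgcCtACAGG
Gm21083, chr5:15580530-15580552, plus strand, replicate 3: gGAtTGTaTTAGgTCTtCAtGGG
The Focad site matched over 2 bases next to the PAM and lay 92 bp from the summit. The Gm21083 site matched none next to the PAM and lay 101 bp from the summit, in a peak whose summit was in coding sequence of that predicted gene. The third, near 1700122O11Rik, had 6 mismatches and is among the sites with 10 matching PAM-proximal bases above.

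Other regions with strong peaks carried shorter uninterrupted matches or other motifs. The lines give 101 bases around the summit on the plus strand of mm10. They show, in order, the stronger of the 2 regions of replicate 1, the region with the highest fold enrichment of replicate 2, the highest of replicate 3, and the strongest regions with an AP-1 motif and with the core of the CTCF motif, the last 2 chosen after their values were seen. Capitals mark CCAC followed by NGG, which is the last 4 bases of gRNA3 with a PAM, TGANTCA, which is the AP-1 motif, and the core of the CTCF motif, each on either strand.
Tbx3os1, chr5:119618042-119618142, replicate 1: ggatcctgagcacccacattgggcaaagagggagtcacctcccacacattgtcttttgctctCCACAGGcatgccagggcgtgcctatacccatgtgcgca
Near Irx3, chr8:91751638-91751738, replicate 2: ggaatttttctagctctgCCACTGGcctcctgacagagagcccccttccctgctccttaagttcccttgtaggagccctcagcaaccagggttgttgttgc
Mrps27, chr13:99399449-99399549, replicate 3: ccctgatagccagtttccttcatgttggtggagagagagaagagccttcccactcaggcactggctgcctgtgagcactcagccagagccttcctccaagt
Near Akap13, chr7:75427484-75427584, replicate 3: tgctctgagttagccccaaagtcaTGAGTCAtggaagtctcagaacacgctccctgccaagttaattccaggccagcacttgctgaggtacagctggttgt
Near Nkx2-3, chr19:43631036-43631136, replicate 3: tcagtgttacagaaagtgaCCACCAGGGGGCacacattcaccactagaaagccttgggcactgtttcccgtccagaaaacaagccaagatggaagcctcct

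The region in Tbx3os1, a long noncoding RNA gene beside the T-box factor Tbx3, had 39 reads against 3.03 expected and a fold enrichment of 7.16, and its match to gRNA3 ran over 9 bases. The other region of replicate 1 lay 106348 bp from the nearest start, that of Mir148a, and had 48 reads against 8.42 expected, a fold enrichment of 4.52 and no match longer than 3 bases. In replicate 2 the highest fold enrichments were 9.10 near Irx3, a homeobox factor, 8.58 in a region 104883 bp from the nearest start whose nearest protein-coding gene was the cartilage matrix gene Matn1, and 8.10 in an intron of Thsd7a, which encodes a membrane protein with thrombospondin repeats. Those of replicate 3 included 12.98 in an intron of Mrps27, a mitochondrial ribosomal protein gene, and 12.7 in a region of 764 bp whose nearest protein-coding gene was Hs1bp3. Of the regions of replicates 1 and 2 named here, those in Tbx3os1 and near Irx3 carried CCAC and NGG within 50 bp of the summit, and none carried the AP-1 motif or the CTCF core there. Near Irx3 the preceding gRNA3 bases, TAGCTCT, were also present, set off from CCAC by 1 extra base, which the count without gaps leaves out.

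The libraries that gave these regions differed widely in the number of their peaks. The depth recovered from the peak values was 24.7, 27.1 and 21.6 M anti-FLAG reads for replicates 1, 2 and 3 of dCas9:gRNA3 and 22.2 to 28.8 M for dCas9:gRNAscr, and the input depth was 8.80, 15.6 and 16.6 M reads for gRNA3 and 8.89 to 11.5 M for gRNAscr. On assembled chromosomes the gRNA3 libraries had 193, 2041 and 6667 peaks and the gRNAscr libraries 290, 1160 and 84. Replicate 3 thus had the most peaks, the deepest input and the lowest anti-FLAG depth of the 3 gRNA3 libraries, and the part of these in the number of its regions was not tested. The regions described here made up 1.04% of the regions with a peak in replicate 1, 23.6% of those in replicate 2 and 63.1% of those in replicate 3. The counterpart for the control guide, regions with a peak in 1 gRNAscr library and more than 1000 bp from starts, numbered 20, 247 and 3, or 270 in all.

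**Figure D1:**
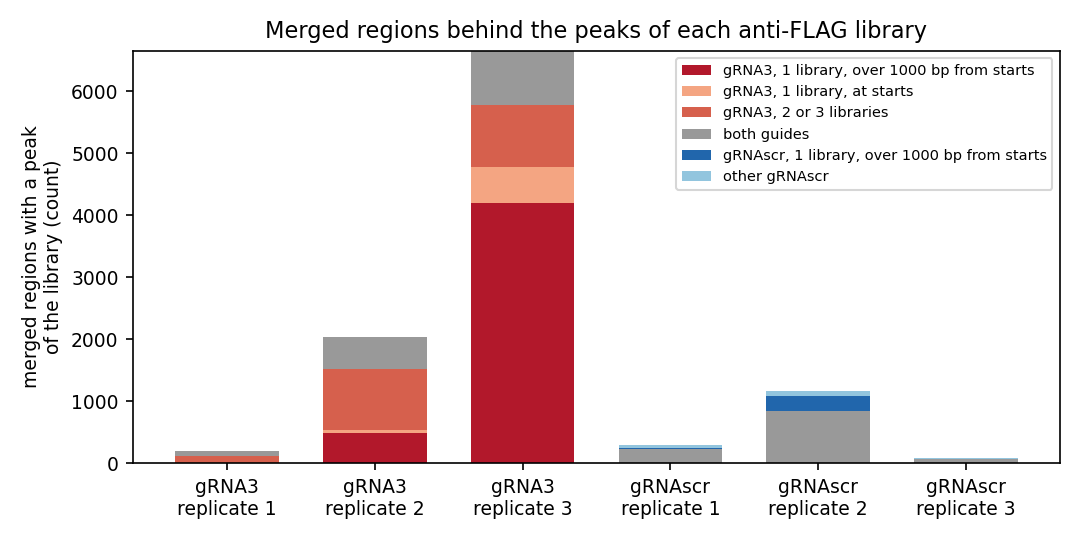
Merged regions with a peak in each anti-FLAG library (count, bars stacked by the libraries and guides that share the region). Single-library regions away from starts, in dark red, number 2, 479 and 4202 in dCas9:gRNA3 replicates 1, 2 and 3, and those of the control guide, in dark blue, 20, 247 and 3.

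The regions were weak peaks for the most part. Their values chose them in part, since a peak had to pass the caller in 1 library and be missed in 5, and are given as a description with no test. The median fold enrichment was 5.06 in replicate 2, with a range from 2.07 to 9.10, and 5.02 in replicate 3, with a range from 1.55 to 12.98. The median over all peaks was 5.28 in replicate 2 and 5.29 in replicate 3. The highest fold enrichment of any peak was 50.2 in replicate 2 and 80.3 in replicate 3. The single-library regions of gRNAscr away from starts had a median fold enrichment of 5.81, and regions called with both guides, of 6.76. The median −log10 q-value, the significance of the summit after the peak caller's correction for multiple testing, was 4.28 in replicate 2 and 5.35 in replicate 3.

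These fold enrichments rested on few reads. At the summit the median pileup was 26 reads in replicate 2 and 22 reads in replicate 3, and the smallest was 17 and 12. The background expected from the input was a median of 3.19 reads in replicate 2 and 2.83 in replicate 3. In 34.2% of the regions, 1601 of 4683, the background was at the lowest value of the library, which is its average over the genome, so that the input itself added nothing to the comparison. Because reads are whole, many regions shared a value. The most frequent, a fold enrichment of 5.56 with 19 reads at the lowest background of replicate 3, occurred in 147 regions, and the 4683 regions held 1627 distinct values.

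A small number of regions stood on a high background. The background was more than 10 times the lowest value in 35 regions and more than 2 times in 1136, or 24.3%. The highest, 89.3 times, was at Ly6c2, a surface antigen gene in a family of close copies, where 405 reads stood against 209.9 expected and the fold enrichment was 1.92. The highest −log10 q-value, 60.6, belonged to a region in an intron of Aida, an axin-interacting protein gene, with 206 reads, a background of 14.9 times the lowest value and a fold enrichment of 5.71. Where gene copies share sequence, as in such families, reads cannot be assigned to one copy with certainty. Of all regions, 138 had a fold enrichment of at least 8, 4 from replicate 2 and 134 from replicate 3.

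**Figure D2:**
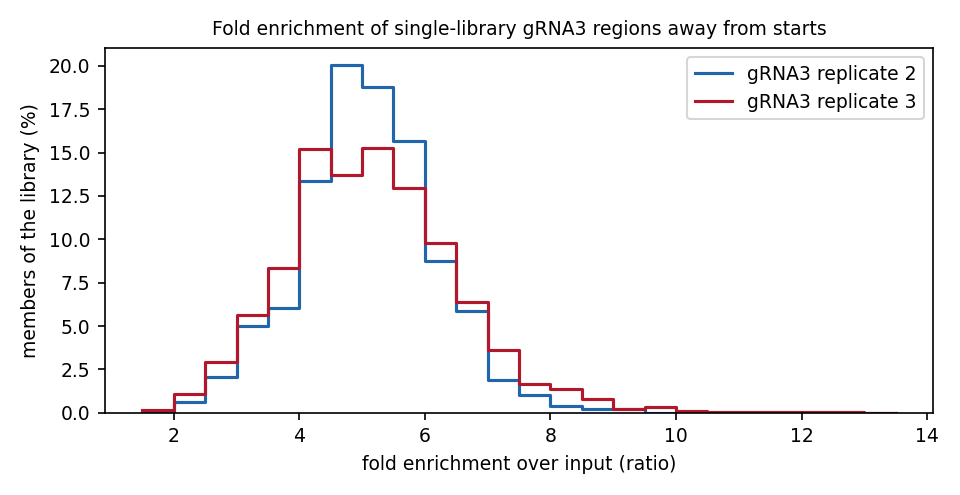
Share of the regions of replicates 2 and 3 of dCas9:gRNA3 (%) by fold enrichment over input (ratio, bins of 0.5). Both distributions centre near 5, with medians of 5.06 and 5.02, and the tail above 10 belongs to replicate 3.

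Few of the regions had another library's peak close by. The rule had already left out every region that overlapped a peak of another library. The median width of the regions was 249 bp, near the 242 bp of single-library gRNA3 regions at starts. It was also near the 235 bp of single-library gRNAscr regions away from starts. The width was 344 bp in regions of 2 or 3 gRNA3 libraries and 389 bp in regions of both guides. Such shared regions span all the peaks merged into them, so the comparison cannot tell wider peaks from the merging. A peak of another gRNA3 library lay within 1000 bp of 134 regions, or 2.86%, and a gRNAscr peak within 1000 bp of 85, or 1.82%. Within 100000 bp the shares were 40.4% and 28.2%. The shares within 1000 bp are low in part because of the rule, and none were obtained for other regions.

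Matches to the PAM-proximal bases of gRNA3 were more frequent near the summits than at genome positions at each length from 4 to 12 bases. CCAC followed by NGG lay within 50 bp of the summit in 718 of 4683 regions, or 15.3% (exact 95% interval 14.3 to 16.4%), where it did so in 16.4% of all 7594 merged regions. Of all genome positions, 3.69% have such a site within 50 bp. The share was 11.7% in replicate 2 (9.0 to 14.9%) and 15.7% in replicate 3 (14.6 to 16.9%), and 1 of the 2 regions of replicate 1 had one. It was 29.1% in regions of 2 or 3 gRNA3 libraries, 9.54% in regions of both guides and 4.81% in the single-library gRNAscr regions (2.59 to 8.09%). The intervals throughout cover counting error only.

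Longer matches were rarer, with shares above those of genome positions and below those of all merged regions. With 6 PAM-proximal bases the share was 2.80%, 131 regions, against 3.75% of all merged regions and 0.311% of genome positions. With 8 bases it was 0.555%, or 26 regions (0.363 to 0.812%), against 0.0225% of genome positions, where 1.08% of all merged regions had such a site. With 10 bases it was 0.278%, against 0.593% of all merged regions and 0.00132% of genome positions, and of the 13 regions with such a site 5 were from replicate 2 and 8 from replicate 3. In regions of 2 or 3 gRNA3 libraries the shares were 12.3% with 6 bases, 5.11% with 8 and 2.81% with 10. In single-library gRNA3 regions at starts they were 3.54%, 0.616% and 0.462%. None of the 270 single-library gRNAscr regions had 6 or more bases, and a count of 0 in 270 allows a share of up to 1.11% if the limit is set at 3 counts, or 1.36% by the exact interval.

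**Figure D3:**
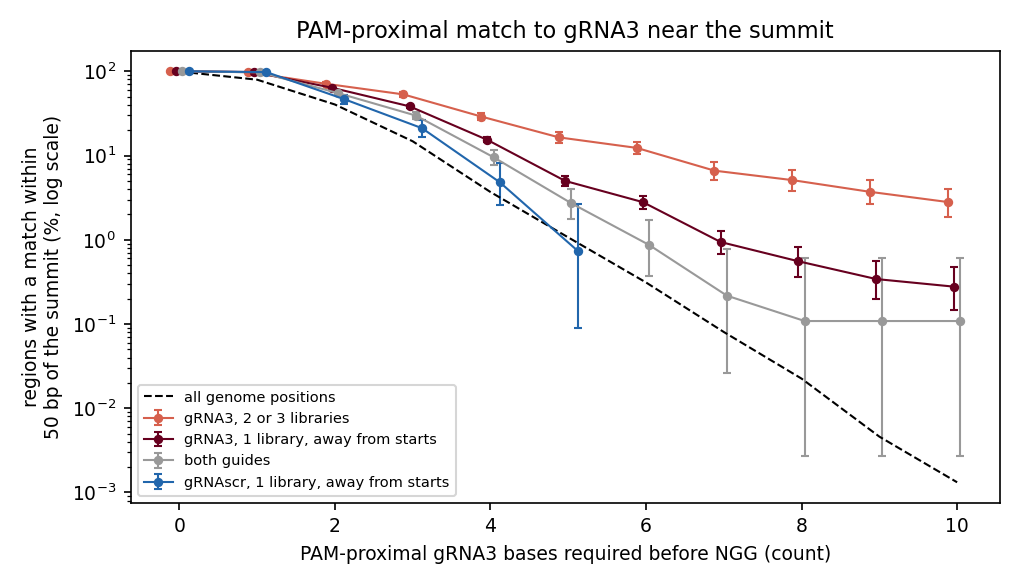
Share of regions with a match within 50 bp of the summit (%, log scale) by the number of PAM-proximal gRNA3 bases required before NGG, for 4 sets of regions, with exact 95% intervals as bars and the share of genome positions as a dashed line. With 4 bases the shares are 29.1%, 15.3%, 9.54% and 4.81% and the genome lies at 3.69%. Points at 0 are not drawn.

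The 4 bases of gRNA3 stood out among all sequences of that length. For each possible sequence of 4 bases followed by NGG, the share of regions with it near the summit was divided by the share of genome positions. CCAC ranked first with a ratio of 4.16. The median ratio was 1.48 and the lowest 0.294. The 3 other orders of the same bases, which match CCAC in base composition, had ratios from 1.87 to 2.10. When the regions were set against regions of both guides in place of the genome, CCAC again ranked first among the 122 sequences that at least 5% of the latter carried, and was number 8 among all sequences of that length. In the single-library gRNAscr regions another sequence was frequent, CTCA with NGG, near 29.6% of summits. It was near 7.79% of summits in the regions described here and 5.32% of genome positions. For CCAC, the PAM was compared with the genome in the same way. With the last 2 PAM bases changed, the ratio for CCAC was 4.16 with NGG, 2.27 with NAG, 2.24 with NGC and 0.892 with NAT, the lowest of the 16 pairs of last bases.

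Farther from the PAM the match weakened. Sites with CCAC and NGG whose PAM-proximal part lay within 25 bp of a summit numbered 402. At bases 5, 6, 7 and 8 from the PAM, the base of gRNA3 was present in 30.8%, 31.6%, 29.9% and 29.6%. The same bases precede CCAC and NGG in 28.6%, 23.01%, 28.5% and 22.7% of the 1059779 sites in the genome. At the 188 such sites in regions of 2 or 3 gRNA3 libraries the 4 shares were 55.9%, 54.8%, 38.8% and 43.1%. The single-library regions thus lay nearer to the genome than to the repeated regions at each of the 4 positions, although the shares at bases 6 and 8 were above the genome beyond their intervals of 27.1 to 36.4% and 25.2 to 34.3%. Bases 15 and 20 from the PAM were also above it, each at 27.9% (23.5 to 32.5%) against 23.2% and 22.7% of the genome sites. Base 12 was below it, at 21.4% (17.5 to 25.7%) against 28.4%. The guide has C or G at bases 6, 8, 15 and 20 and T at base 12. The median GC content near the summits was 51.2%, where 41.7% of assembled bases are G or C. The comparison with genome sites was not matched for base composition, and the part of composition in these shares was not tested.

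The sites also sat at the summit. In bins of 20 bp, CCAC with NGG occurred 4.27 and 4.19 times per 100 regions on either side of the summit. To the left it occurred 2.03 times at 60 to 80 bp and 1.00 time at 180 to 200 bp. To the right it occurred 2.31 and 1.60 times at these distances, and the genome average is 0.801. The AP-1 motif had a broad profile with no maximum at the summit, at 1.94 and 2.33 sites per 100 regions beside the summit, 2.84 and 2.97 in the highest bins on either side and a genome average of 0.635. The CTCF core had a dip beside the summit, with 0.683 and 0.705 sites per 100 regions, and reached 1.30 sites at 60 to 80 bp to the left and 1.32 at 60 to 80 bp to the right.

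**Figure D4:**
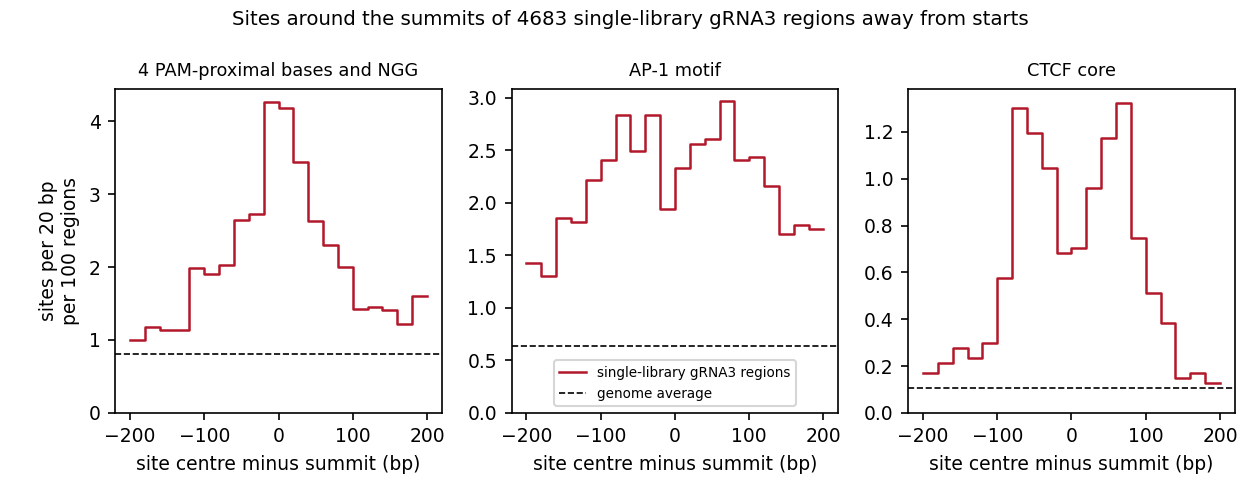
Sites per 20 bp per 100 regions by the distance of the site's centre from the summit (bp), for CCAC with NGG, the AP-1 motif and the CTCF core in the 4683 regions, with the genome average dashed. The sequence of gRNA3 is highest at the summit, with 4.27 and 4.19, while the CTCF core has a dip there between 2 maxima of 1.30 and 1.32.

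The stronger regions carried the guide's sequence more often. Among the 4202 regions of replicate 3, CCAC with NGG was near the summit in 9.45% of the 455 regions with a −log10 q-value of at most 3, in 12.3% of 1363 regions from 3 to 5, in 15.8% of 1541 regions from 5 to 8, in 21.2% of 643 regions from 8 to 12 and in 35.5% of 200 regions above 12 (28.9 to 42.6%). With 6 bases the shares ran from 0.879% in the weakest class to 8.5% in the strongest, and with 8 bases from 0 of 455 regions, which allows up to 0.659% at 3 counts or 0.807% by the exact interval, to 2%. The AP-1 motif went from 7.91% to 15%, while the CTCF core was at 2.2% in the weakest, 5.13% in the class from 8 to 12 and 2.50% in the strongest class. The median GC content of the classes lay between 50.2% and 52.2%. In replicate 2, CCAC with NGG was near 8.51% of the 282 summits with a −log10 q-value of at most 5 and 16.2% of the 197 above. In the single-library regions of gRNAscr replicate 2 these shares were 5.03% of 159 and 4.55% of 88.

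**Figure D5:**
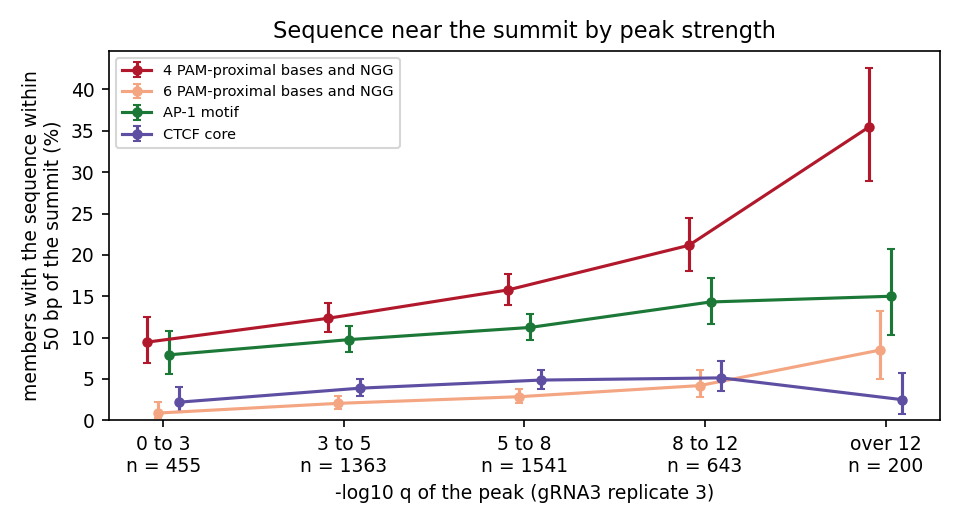
Share of the regions of dCas9:gRNA3 replicate 3 (%) with a sequence within 50 bp of the summit, by −log10 q-value of the peak, with exact 95% intervals as bars. CCAC with NGG goes from 9.45% to 35.5% and the AP-1 motif from 7.91% to 15%, and the CTCF core has no such course.

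Between the guides, the seed was compared over libraries, the unit of replication. The rule limits this comparison, because a gRNAscr region that overlaps a gRNA3 peak is counted with the regions of both guides. CCAC with NGG was near 9.54% of summits in the regions of both guides and 4.81% in the single-library gRNAscr regions. How far the rule lowered the gRNAscr shares was not tested. The share of single-library regions away from starts with 8 PAM-proximal bases and NGG was 50%, 1.04% and 0.476% in gRNA3 replicates 1, 2 and 3 and 0% in each gRNAscr library. The means were 17.2 ± 28.4% and 0 ± 0% (SD, n = 3 each), and the difference reached the smallest p that 3 against 3 libraries allow (exact permutation test, two-sided, with 20 assignments of the libraries, p = 0.1, adjusted p = 0.267 over 4 measures). Replicates 1 and 3 of gRNAscr had only 20 and 3 regions. In gRNAscr replicate 2, a count of 0 in 247 allows a share of up to 1.48% by the exact interval. That limit covers the 1.04% and 0.476% of gRNA3 replicates 2 and 3. The p-values of this comparison therefore cannot tell a lower share from too few regions. The mean of gRNA3 rested on replicate 1, with 1 of only 2 regions. Without that library the difference was 0.769 percentage points instead of 17.2, with p = 0.1 in an exact permutation test over 10 assignments, and it was 12.9 without replicate 2 and 6.46 without replicate 3 of gRNA3. For CCAC and NGG, a length added after the data were seen, the shares were 50%, 11.7% and 15.7% with gRNA3 and 5.00%, 4.86% and 0% with gRNAscr, and did not overlap (exact permutation test, p = 0.1). With 5 bases, also added then, they were 50%, 3.97% and 5.09% with gRNA3 and 5%, 0.405% and 0% with gRNAscr, and did overlap. With 6 bases they were 50%, 2.09% and 2.86% with gRNA3 and 0% in each gRNAscr library.

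Motifs of transcription factors were compared in the same window. The AP-1 motif TGANTCA was near the summit in 504 regions, or 10.8% (9.9 to 11.7%), where 11.4% of all merged regions and 2.96% of genome positions had it. TGACTCA or its reverse complement accounted for 408 of these regions and the forms with A or T in the middle for 106, with some regions holding both. The share was 8.35% in replicate 2 and 11.0% in replicate 3, and 15%, 16.2% and 0% in gRNAscr replicates 1, 2 and 3. TGACTCA ends in CTCA, which was followed by NGG near 29.6% of the summits of single-library gRNAscr regions. The part of that sequence in the AP-1 shares of the control guide was not tested. The means of 6.46 ± 5.76% for gRNA3 and 10.4 ± 9.02% for gRNAscr (SD, n = 3 each, with 0% in replicate 1 of gRNA3) lay closer together than the libraries of either guide were spread (exact permutation test, two-sided, p = 0.6, adjusted p = 0.6). The direction turned when replicate 3 of gRNA3 was left out, with a difference of 1.83 percentage points in place of −3.93.

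The CTCF core was near the summit in 183 regions, or 3.91% (3.37 to 4.50%), against 3.36% of all merged regions and 0.484% of genome positions. It was found in 1.74% of regions of both guides (1.00 to 2.80%) in 2.22% of single-library gRNAscr regions and in 4.16% of single-library gRNA3 regions at starts. Replicate 3 carried the value, with 4.19% (3.6 to 4.8%) against 1.46% in replicate 2 (0.590 to 2.99%). The TEAD motif GGAATG, read by the factors at the end of the Hippo pathway, was near 8.76% of summits, where 8.93% of all merged regions, 11.9% of single-library gRNAscr regions and 5.50% of genome positions had it. The motifs TGTGGTT of RUNX factors, GGGCGG of SP and KLF factors and CCGGAAG of ETS factors stood at 3.22%, 2.26% and 0.662%, against 3.17%, 3.03% and 0.698% of all merged regions and 2.31%, 0.987% and 0.276% of the genome. The C/EBP motif TTGCNNAA, at 4.46%, and the STAT motif TTCNNNGAA, at 2.80%, were at or below the 4.69% and 3.69% of the genome. The E-box CACGTG stood at 1.39% against 0.954%, and the motifs of CRE (TGACGTCA), NRF1 and NFI were each found in at most 3 regions. A match is a description of the letters and not a binding site.

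CCAC with NGG, the AP-1 motif and the CTCF core seldom met. Both CCAC with NGG and AP-1 were near the summit in 83 regions, CCAC with NGG and the CTCF core in 23, and AP-1 and the CTCF core in 4. At least 1 of the 3 was near 1295 summits, or 27.7%, and 3388 regions, or 72.3%, had none. Searches were made on both strands and the 3 sequences may share bases where they overlap.

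The base composition of the regions differed from that of the genome. The median GC content within 100 bp of the summit was 50.2% in replicate 2 and 51.2% in replicate 3, where 41.7% of assembled bases are G or C. Bases masked as repeats made up 11.7% of the sequence near the summits on average, against 36.4% of the genome, and 65.9% of the regions had none. The other sets of merged regions had lower averages, including 9.35% in single-library gRNAscr regions away from starts and 9.86% in regions of 2 or 3 gRNA3 libraries. The medians of GC content per library were 51.2%, 50.2% and 51.2% with gRNA3 and 48.8%, 48.8% and 50.7% with gRNAscr, means of 50.9 ± 0.574% and 49.4 ± 1.15% (SD, n = 3 each). The difference of 1.49 percentage points did not pass the test (two-sided exact permutation test, p = 0.2, adjusted p = 0.267).

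Introns and intergenic DNA held nearly all of the regions. The summit was inside an annotated gene in 2553 of 4683 regions, or 54.5%, where 57.1% of all merged regions were. It was in an intron in 2375 regions, or 50.7%, in coding sequence in 47, in an untranslated region in 59, in another exon in 72 and outside genes in 2130, or 45.5%. Of the assembled bases more than 1000 bp from starts, 44.2% lie in a gene. The share per library was 50%, 56.4% and 54.3% with gRNA3 and 70.0%, 54.7% and 100% with gRNAscr, where replicate 3 of gRNAscr had only 3 regions. The means of 53.6 ± 3.25% and 74.9 ± 23.1% (SD, n = 3 each) differed by less than the spread of the gRNAscr libraries (two-sided exact permutation test, p = 0.2, adjusted p = 0.267), and the difference went from −21.3 to −3.64 percentage points without gRNAscr replicate 1 and to −5.88 without gRNAscr replicate 3.

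Although the rule kept only regions more than 1000 bp from a start, they lay nearer to starts than the genome under the same rule. From 1 to 5 kb of a start there were 1106 regions, or 23.6%, against 18.2% of the assembled bases, and from 5 to 10 kb 20.7% against 15.3%. Beyond 100 kb there were 97 regions, or 2.07%, against 9.70% of the bases. The median distance was 12402 bp in replicate 2 and 11773 bp in replicate 3. Nearest to the limit of the rule were a region 1003 bp from a start of Ctbp1, a transcriptional corepressor, with a fold enrichment of 3.54, and a region 1009 bp from a start of Fam178b with 5.27. Just outside, and so not included, were a region 1000 bp from a start of Gm29233, in an untranslated exon of the matrix gene Thbs1, with a fold enrichment of 4.83, and a region 984 bp from a start of Runx1t1 with 7.48, all 4 of them from replicate 3.

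The sex chromosomes held few of the regions. There were 1.77 regions per Mb of assembled sequence in the genome and from 0.848 on chromosome 14 to 3.14 on chromosome 19 among the autosomes, with 2.99 on chromosome 17 and 2.80 on chromosome 11. Chromosome X had 13 regions, or 0.0795 per Mb, and chromosome Y had 1. The other merged regions had the same low number on chromosome X, 12, or 0.0734 per Mb.

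Of 2737 windows of 1 Mb, 1422 held at least 1 region, with a median of 3 in those. The highest number was 24, on chromosome 8 from 20 to 21 Mb, where the protein-coding genes include Defb33, a beta-defensin, and several predicted genes. There the median local background was 2.90 times the lowest value, and 43 other merged regions lay in the same window. The next were 17 regions on chromosome 4 from 57 to 58 Mb, around Palm2 and Akap2, with a median background of 1.12 times the lowest value, and 16 each on chromosome 1 from 88 to 89 Mb, which holds the Ugt1a cluster of glucuronosyltransferases, and on chromosome 10 from 86 to 87 Mb.

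Within genes, the regions gathered in long ones. A region lay inside 1469 of 21938 protein-coding genes, or 6.70%, and these had a median length of 98.9 kb against 17.4 kb for all. There were at least 2 regions in 424 genes and at least 5 in 42. Syn3, a synapsin gene of 443.8 kb whose introns contain the metalloproteinase inhibitor Timp3, had the most with 15, of which 14 were from replicate 3, at fold enrichments from 2.96 to 7.21. Bnc2, which encodes a zinc finger protein of mesenchymal cells, had 13, of which 3 were from replicate 2, at 3.92 to 6.67. Gm20388, a predicted gene model that spans 4435 kb, had 11. Babam2, a subunit of a BRCA1 complex, and Palm2, a paralemmin gene, had 9 each. Per length, Syn3, Bnc2 and Palm2 were alike at 33.8, 32.5 and 32.4 regions per Mb.

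Near gene starts, a region lay within 50 kb of a start of 4832 protein-coding genes, 22% of 21938. Of 20 genes of the fibroblast matrix 13 had one, of 20 genes of the cytoskeleton and adhesion 9, of 16 genes of the AP-1 family 6, of 19 genes of the Hippo pathway and TEAD targets 7 and of 20 genes of the TGF-beta pathway 7. Of 20 genes of other tissues, chosen as a contrast, 1 had a region, Rbfox3, a neuronal splicing factor, at a fold enrichment of 4.83. The lists are short, the genes differ in length and number of starts, and neighbouring genes can share a region, so that the counts are given as such with no test.

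Col1a2, a chain of type I collagen, had 4 regions within 50 kb, the strongest with 37 reads and a fold enrichment of 10.4 at 46780 bp from a start. Postn, the matrix protein periostin, had 4 regions, the strongest at 7.76. The proteoglycan genes Dcn and Lum shared 1 region, also at 7.76, 33195 bp from a start of Dcn and 48374 bp from a start of Lum. The equal values come from 27 reads at the lowest background. Col1a1 and Col3a1, which encode other collagen chains and were named after the values were seen, had none.

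The strongest region of the TGF-beta list lay 39586 bp from a start of Tgfb2, a ligand of the pathway, with 39 reads and a fold enrichment of 11.0. Ltbp1 and Ltbp3, which hold the latent ligand in the matrix, had 4 and 3 regions with highest values of 7.26 and 4.92. The receptors Tgfbr1 and Tgfbr2 and the ligands Tgfb1 and Tgfb3 had none, while the coreceptor Tgfbr3 had 6, the most of the list, at up to 4.89, and these 5 genes were named after the values were seen.

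Among the Hippo genes the strongest regions were at Amotl1, which binds the coactivator YAP, with 6.66, at Vgll4, a TEAD cofactor, with 6.41, at Ccn2, a secreted matricellular target, with 6.39 and at Tead1 with 5.35. Among the AP-1 genes they were at Atf3 with 6.93, Batf3 with 5.22, Maf with 4.74 and Fosl1 with 4.30. Fos, Fosb and Junb, also named after the values were seen, had none. In the cytoskeletal list the highest values were lower and included 5.07 at Actn1, an actinin, 4.96 at the tropomyosin gene Tpm1 and 4.65 at Myh9, a nonmuscle myosin. The regions named in these lists were all from replicate 3.

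The intended target could not be among the regions, because it lies at a start of Il33, within the distance that the rule leaves out. The paper reports the Il33 promoter as its most enriched locus by fold change. The nearest of the regions described here lay 28.2 kb from the gRNA3 site in Il33, in replicate 2. It was 7383 bp from an annotated start of Il33, the gene of the cytokine interleukin-33. It had 26 reads against 2.96 expected, a fold enrichment of 5.91, and only 1 base next to the PAM in common with gRNA3 near its summit. In all, 5 regions lay within 1 Mb of the target on either side, where chromosome 19 as a whole had 3.14 regions per Mb.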

How the data were processed

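Anti-FLAG ChIP-seq libraries of NIH-3T3 cells with dCas9 and gRNA3 or gRNAscr (n = 3 each) were grouped from their titles. Per the submitters' processing notes, the authors used bcl2fastq 2.20, Trim Galore 0.6.4, Bowtie2 2.3.4.1 and MACS2 2.2.7.1 with mm10, and called peaks per library without pooling. For each peak the authors deposited a score, the fold enrichment, which is a ratio with pseudocount 1, and the −log10 p-value and −log10 q-value of the summit. Reads were not analysed here.

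Positions were converted to 1-based. Pileup, background and depth were solved from the fold enrichment and the Poisson p-value, assuming fragments of 204 bp and each library scaled to its input. Pileups were whole numbers within 0.1 read for 99.5 to 100% of peaks. Tested on simulated data, the step recovered 100% of pileups in sets of 88, 500 and 3000 peaks. Depth limits weak peaks, and the recovered totals rest on the caller's model.

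Bases were read from GRCm38 (RefSeq) and compared with GENCODE M21. The 4 measures were tested over libraries by two-sided exact permutation tests with Benjamini-Hochberg adjustment. The labels do not say that replicates were separate cultures. The paper calls all its replicates biological, and the spread that a p measures rests on that statement. Named regions were the 3 with the highest fold enrichment per library, the longest and closest matches to gRNA3, those nearest the distance limit and the target, up to 4 genes per list and the genes and windows with most regions, except where the text says otherwise. Some items that this rule names are not reported here. The members, lists, tests and rule were chosen with earlier results of these data known. Alternatives were stricter peak thresholds, other merging and start distances, other windows and seeds, a replicate block and each library left out. Seeds of 4 to 6 bases and libraries with at least 10 regions were added after seeing the data. Python 3.11.15, NumPy 2.4.6, pandas 2.3.3, SciPy 1.17.1, numba 0.67.0 and matplotlib 3.10.9 were used.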

Additional observations from a re-analysis of the deposited data

How the results depend on the processing

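The number of regions depended on the libraries. It ran from 1283 to 5015 with 1 library left out, the lowest without gRNA3 replicate 3, and from 3126 to 4995 under the other alternatives. The share from replicate 3 was 88.6% with a fold enrichment of at least 4, and 89.7 to 99.9% with 1 library left out, the highest without gRNA3 replicate 2. The difference in the AP-1 motif changed direction to 0.913 percentage points with a fold enrichment of at least 4 and to 9.73 with the motif sought anywhere in the region, and ran from −8.33 to 1.83 with 1 library left out. The cause was not tested. The differences in GC content (1.16 to 3.63 percentage points), in the gRNA3 seed (0.760 to 34.1) and in the share inside genes (−35.4 to −1.81) kept their direction under all 18, 24 and 17 alternatives run. Where no gRNAscr region carried the seed, the seed difference could not change direction. At 5 kb from starts 1 gRNAscr library had no region and was left out of the tests.

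With the replicate number as a block the differences stayed at 1.49, 17.2, −3.93 and −21.3 percentage points for GC content, seed, AP-1 and genes, and the exact permutation p-values were 0.25, 0.25, 0.75 and 0.5, where 0.25 is the smallest that 8 assignments allow. The correlations of the deviations of same-numbered libraries over 7594 regions were −0.0719, 0.148 and 0.196 for replicates 1, 2 and 3, and the highest with another number were 0.0677, −0.0649 and 0.110. Replicates 2 and 3 correlated best with their own number and replicate 1 did not, so the numbers were not taken to pair the libraries.

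Depth limits these values. A peak missed by the caller in a library has no value there, libraries with 2, 3 and 20 regions enter the tests with the same weight as the larger ones, and 3 against 3 libraries cannot give a p below 0.1.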
